A study of Rattus norvegicus with 8 samples.

Results

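Translation initiation and elongation factors bring ribosomes onto mRNA and move them along it, and their genes were followed here in rat skeletal muscle after exercise and a meal. The members were taken by name: every probe set with exactly 1 gene symbol that began with Eif or Eef and a digit, so that the 4E-binding proteins and the eIF2-alpha kinases are among them. The rule gave 93 probe sets of 60 genes, out of 31042 probe sets tested and out of 14217 genes with a probe set of 1 symbol. Another 5 probe sets named several symbols and were left out, so that Eif5 and Eif3e had no usable probe set.

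The series asked whether whey protein hydrolysate (WPH), the whey protein of milk split by enzymes into short peptides, leads to another pattern of muscle gene expression than an amino acid mixture (AAM) of the same composition. All animals were male Sprague-Dawley rats aged 6 weeks that had practised swimming for 3 days, had 5 g of food on the eve of the experiment and then swam for 2 h. Each rat was gavaged with 44 kJ, about 15% of a day's energy, as carbohydrate with WPH (n = 4) or carbohydrate with AAM (n = 4). RNA of the epitrochlearis, a small forelimb muscle, was measured on 1 Affymetrix array per rat from 100 ng of total RNA. All 8 rats swam and were fed, so neither exercise nor feeding itself is compared. The labels call the samples biological replicates and name no array batch; 4 rats swam together in a barrel, and the sources used here do not give which rats shared one, so barrel and meal cannot be told apart if they coincided. Nor do they give how long after the meal the muscle was taken.

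As background, protein synthesis starts when eIF2, carrying GTP and the initiator tRNA, joins eIF1, eIF1A, eIF3 and the small ribosomal subunit, while eIF4E, eIF4G and the helicase eIF4A bring the capped end of the mRNA to it. Both steps are controlled on the proteins: kinases phosphorylate the alpha subunit of eIF2 and so block its recharging by eIF2B, and 4E-binding proteins hold eIF4E until the kinase complex mTORC1 phosphorylates them. Elongation is carried by eEF1, which delivers aminoacyl-tRNA, and eEF2, which moves the ribosome and is inhibited by its own kinase. In skeletal muscle, amino acids and insulin act on the 4E-binding proteins through mTORC1. The arrays measured mRNA only, and phosphorylation is not among these data.

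The deposited values are levels on a log2-like scale, between 5.28 and 14.2, and differed very little between arrays. Over the 8 arrays, the median SD was 8.81 millionths of a unit for the members and 3.69 millionths for all probe sets tested, and 31.2% of all tested had an SD above the members' median. For that reason no difference is given as a fold change. Values by array are given below as deviations from the mean of the 8 arrays, in millionths of a unit, and the size of a difference as the standardized difference, taken as WPH minus AAM in units of the pooled within-group SD. The medians of the 8 arrays lay within 66.7 millionths of each other. The labelled tissue was met by its markers: of 12 fast muscle fibre genes 11 were measured, with mean levels of 11.3 to 14.2. In a piece of muscle, fewer cells of a type and less RNA per cell cannot be told apart.

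Between the meals, no translation factor gene passed the test. By limma with Benjamini-Hochberg adjustment over all 31042 probe sets, 0 of 93 members had an adjusted p below 0.05, against a background of 0% of all tested (0 probe sets). The adjusted p of every member was 0.9998, and the smallest over all tested probe sets was 0.525. At an unadjusted p below 0.05, 1 member was lower after WPH, against 1.86% of all tested, and 0 members were higher, against 1.71%. The 4 WPH and 4 AAM arrays did not overlap for 1 member, against 2.23% of all tested. These shares of members were not above the background.

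Of the 93 members 35 were higher and 58 lower after WPH, of any size, and the background of probe sets lower after WPH was 52.7%. The median standardized difference of the members was −0.21, and that of all tested was −0.04. In size alone, the members' median was 0.45 and that of all tested was also 0.45, and 8 members (8.60%) lay beyond 1, against 17.2% of all tested. The direction depended on how arrays were centred. After median centring of each array, 84 of 93 members and 91.0% of all tested were lower after WPH, and after quantile normalization 35 of the 71 members that could be fitted were lower, against 46.0% of all tested. Directions below are those of the deposited values.

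**Figure D1:**
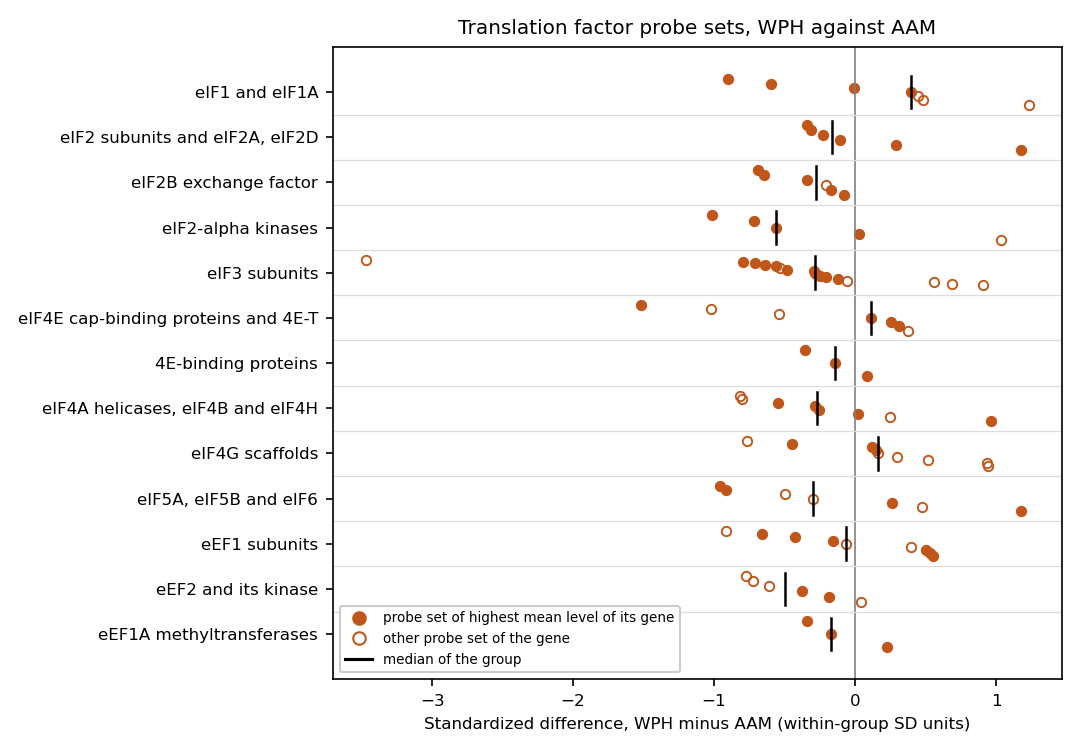
Standardized difference, WPH minus AAM in units of the SD within groups, of each of the 93 probe sets (circles), in rows by factor group; filled circles are the probe set of highest mean level of each gene, open circles the gene's other probe sets, and black bars group medians. Apart from the Eif3c probe set at −3.47, all members lie between −1.52 and 1.23.

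The members differed more from rat to rat than between the meals, and many did so together. The mean Pearson correlation over the 8 arrays between members of different genes was 0.164, and over all pairs of probe sets tested it was 0.00190. Among members it was 0.0869 after quantile normalization and 0.617 after median centring, so its size depended on the scaling. The correlation over all pairs was not computed after either scaling, so these values have no background here. Of the 93 members 32 correlated above 0.7 with the mean profile of the members of other genes, against a background of 10.2%. Among the 15521 probe sets in the brighter part of the array, 17.0% passed that limit, and 40% of the 80 members there did. All these correlations share the same 8 arrays and are a description.

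The shared profile was low on 1 array of each meal. The mean z-score of the members, which sets each probe set to mean 0 and SD 1 over the 8 arrays, was 0.31, −0.17, 0.05 and −0.46 on WPH replicates 1 to 4, against 0.40, −0.14, −0.59 and 0.60 on AAM replicates 1 to 4. The mean was −0.07 ± 0.33 after WPH and 0.07 ± 0.54 after AAM (mean ± SD, n = 4 each), a difference below either spread. With each gene represented by the probe set that had the highest mean level, 19 genes had their lowest value on WPH replicate 4 and 23 on AAM replicate 3, together 42 of 60, and 31.0% of all tested probe sets were lowest on either. AAM replicates 1 and 4 held the highest value of 18 of the 60 genes each, against 14.7% and 12.1% of all tested probe sets. Without AAM replicate 3 and WPH replicate 4 the mean correlation between members was 0.1404, against 0.00156 over all pairs of probe sets tested.

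Marker lists also differed on these arrays. The fibroblast and matrix list, 6 of 6 genes measured, scored −1.21 to 1.38 after WPH and −0.58 to 0.68 after AAM, with 1.38 on WPH replicate 4 and 0.68 on AAM replicate 3. The adipocyte list (5 of 5) scored −1.01 to 0.53 after WPH and −0.87 to 1.11 after AAM, with 0.53 on WPH replicate 4 and 0.71 on AAM replicate 3. The macrophage list (5 of 5) scored −0.89 to 0.83 after WPH and −0.79 to 0.78 after AAM, with 0.83 on WPH replicate 4 and 0.34 on AAM replicate 3. Both arrays were thus above 0 in these 3 lists. So were WPH replicate 3 (0.53, 0.32 and 0.20) and AAM replicate 1 (0.06, 1.11 and 0.78), where the members scored 0.05 and 0.40. On WPH replicate 4 and AAM replicate 3 the other lists scored −0.70 and 0.81 for erythrocytes (3 of 5 measured), 0.14 and 0.27 for endothelium (5 of 6), −0.48 and 0.18 for skin and epithelium (5 of 5), 0.01 and 0.14 for Schwann cells and nerve (3 of 5), and −1.25 and 0.22 for slow muscle fibres (6 of 6). The fast fibre list (11 of 12 measured) scored 1.11 on WPH replicate 4 and −0.72 on AAM replicate 3. That score is of limited use, because Acta1, Tnnc2, Ckm and Tnnt3 had SDs of 0.00535 to 0.0569 millionths, close to the last deposited digit. The part of cell composition in the shared profile was not tested.

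**Figure D2:**
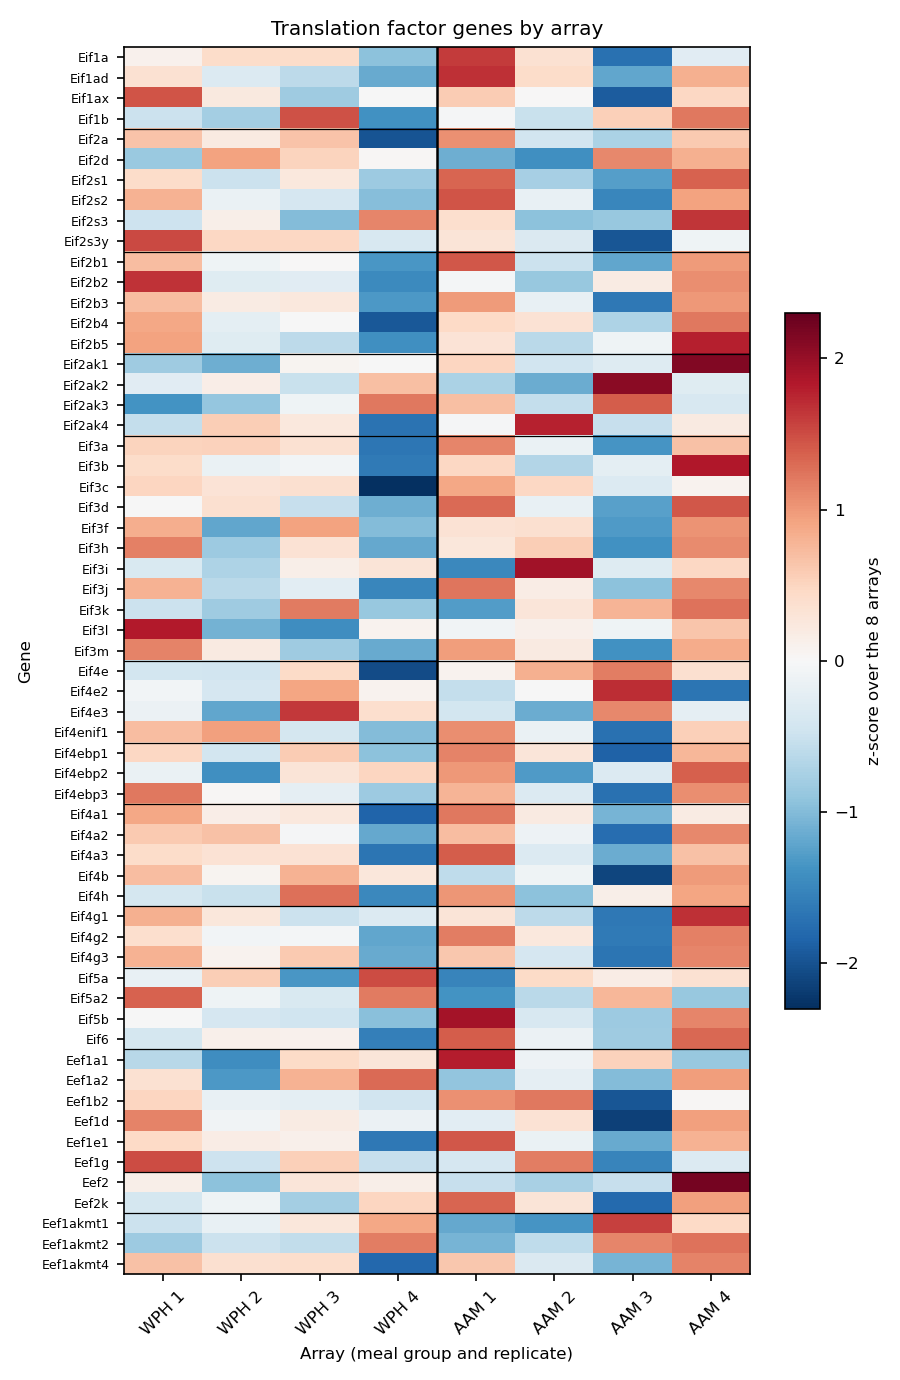
z-score over the 8 arrays (colour scale, blue low and red high) of the 60 translation factor genes, each shown by the probe set with the highest mean level, in rows by factor group, with the 4 WPH arrays to the left of the 4 AAM arrays. The columns of WPH replicate 4 and AAM replicate 3 hold the lowest value of 42 of the 60 genes.

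Some of these genes carry sequence features that are known from translation and from growth control. RefSeq promoter windows of the GRCr8 assembly, 250 bases before to 50 after the annotated start, were found for 55 of the 60 member genes (58 windows). A terminal oligopyrimidine tract, by which mTORC1 controls the translation of ribosomal protein and elongation factor mRNAs, was searched on the gene's strand as a C followed by at least 4 further C or T within 5 bases of the annotated start. It was present in 16 of 58 windows (27.6%), against 16.5% of 21851 windows of all protein-coding genes. The palindromic E-box CACGTG, a site read by Myc, was present on either strand in 12 of 58 windows (20.7%), against 7.02% of all. The interferon-stimulated response element (GAAA, any 2 bases and GAAA again), searched on both strands, was present in 5 of 58 windows (8.62%), against 3.70% of all. The element TGATGNAA, read by ATF4 with C/EBP, was present in 1 of 58 windows (1.72%, Eif2s2), against 3.35% of all. A match describes letters only, and in Eif2a and Eif2s3 the response element overlaps the tract.

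The following windows show the tract, in capitals, near the annotated start of 4 genes whose mRNAs belong to the elongation and eIF3 groups described below. They are Eef1a1 (chr8:88225050-88225089, minus strand), Eef1b2 (chr9:72074071-72074110, plus strand), Eif3f (chr1:172369042-172369081, plus strand) and Eif3m (chr3:111897174-111897213, minus strand), each with 20 bases before and 20 from the annotated start. Counted from that start, the match begins at base −1 in Eef1a1, 3 in Eef1b2, 5 in Eif3f and 6 in Eif3m.
Eef1a1: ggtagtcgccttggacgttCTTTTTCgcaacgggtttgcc
Eef1b2: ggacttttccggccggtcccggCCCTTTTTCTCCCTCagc
Eif3f: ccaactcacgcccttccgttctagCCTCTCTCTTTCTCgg
Eif3m: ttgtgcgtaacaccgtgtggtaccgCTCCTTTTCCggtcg

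The next windows show in capitals the E-boxes of Eif4e (chr2:229740506-229740687, plus strand), which has 2, and of Eef2 (chr7:9189282-9189341, minus strand), and the response element of Eif2ak2 (chr6:21941113-21941172, plus strand), the member that varied most between rats.
Eif4e: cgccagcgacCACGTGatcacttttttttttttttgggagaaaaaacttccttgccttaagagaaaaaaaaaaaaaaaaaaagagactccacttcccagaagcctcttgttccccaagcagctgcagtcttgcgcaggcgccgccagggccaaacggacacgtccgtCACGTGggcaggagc
Eef2: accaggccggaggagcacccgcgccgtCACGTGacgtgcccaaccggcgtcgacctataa
Eif2ak2: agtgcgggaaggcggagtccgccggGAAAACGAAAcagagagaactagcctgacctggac

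The eIF2 subunits, which carry the initiator tRNA, were grouped with eIF2A and eIF2D, which are separate initiation proteins. Of these 6 genes 2 were higher and 4 lower after WPH, with a median standardized difference of −0.16, and none passed the test. Eif2s1, the alpha subunit that the stress kinases phosphorylate, had deviations of 10.4, −12.1, 5.80 and −20.7 millionths on WPH replicates 1 to 4, against 32.9, −18.7, −31.3 and 33.6 on AAM replicates 1 to 4. The groups overlapped, with a standardized difference of −0.32 (95% interval −1.70 to 1.09). Of all members Eif2s1 was the closest to the mean profile of the others (r = 0.96 over 8 arrays). Eif2s2, the beta subunit, had r = 0.94. Eif2s3y, a gamma subunit copy on the Y chromosome in mouse, had the smallest p of the group: 44.0, 13.7, 13.8 and −10.6 after WPH, against 8.56, −9.63, −57.1 and −2.74 after AAM. Its standardized difference was 1.18 (interval −0.39 to 2.67), with an unadjusted limma p of 0.128, an adjusted p of 0.9998 and an exact permutation p of 0.171. Eif2s3, the gamma subunit on the X chromosome, stood at −0.10, and Eif2s2 at −0.34. Eif2a stood at −0.22 and Eif2d at 0.29.

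The 5 genes of eIF2B, the exchange factor that recharges eIF2 with GTP, were the most alike of the groups with at least 5 genes. All 14 pairs of probe sets of different genes correlated positively, with a mean r of 0.67 over the 8 arrays, and 0.76 over the 6 arrays without AAM replicate 3 and WPH replicate 4. All 6 probe sets were lower after WPH, by −0.69 to −0.08, and 5 of 6 were after quantile normalization. Eif2b5, the catalytic epsilon subunit, had deviations of 13.1, −3.97, −8.66 and −20.2 after WPH, against 4.37, −8.80, −1.45 and 25.6 after AAM. Eif2b4, the delta subunit, had 60.8, −15.1, −1.14 and −133 after WPH, against 31.5, 23.1, −48.8 and 82.7 after AAM. WPH replicate 4 was lowest and AAM replicate 4 highest in both, and the groups overlapped. The standardized difference of Eif2b5 was −0.69 (interval −2.10 to 0.77; unadjusted limma p 0.345, adjusted p 0.9998), and its second probe set gave −0.21. Eif2b1 stood at −0.34, Eif2b2 at −0.17 and Eif2b3 at −0.08. The score of the group was −0.18 ± 0.91 after WPH and 0.18 ± 0.89 after AAM (mean ± SD, n = 4 each).

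The 4 kinases of eIF2 alpha did not vary together (mean r −0.15 over 9 pairs of probe sets). Eif2ak2 encodes PKR, which double-stranded RNA activates and which interferon induces. It had the largest SD of all members, 1764 millionths, with deviations of −472, 267, −905 and 1227 after WPH, against −1273, −1999, 3648 and −493 after AAM. AAM replicate 3 stood highest, and the standardized difference was 0.03 (interval −1.36 to 1.42), or 1.48 without that array. The interferon-stimulated genes Mx1, Isg15 and Irf7, chosen after their values were seen, had deviations of 205222, 212863 and 186059 on AAM replicate 3, and none of the other 7 arrays exceeded 19124 in any of them. Eif2ak2 went against the other members, with r = −0.69 to their mean profile.

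Eif2ak1, the heme-regulated kinase, had −3.05, −4.19, 0.253 and −0.0496 after WPH, against 1.84, −1.61, −1.09 and 7.90 after AAM. That is a standardized difference of −1.02 (interval −2.48 to 0.51; unadjusted limma p 0.183, adjusted p 0.9998), while its second probe set gave 1.04, in the other direction. Eif2ak3, PERK of the endoplasmic reticulum, had −5.19, −3.32, −0.392 and 4.57 after WPH, against 2.57, −2.03, 5.21 and −1.41 after AAM. The difference was −0.56 (interval −1.96 to 0.88). Eif2ak4, GCN2, which senses uncharged tRNA when amino acids are short, had −4.75, 5.00, 2.11 and −15.0 after WPH, against −0.221, 15.6, −4.60 and 1.85 after AAM. Here too the groups overlapped, with a difference of −0.72 (interval −2.13 to 0.75).

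Among eIF1 and eIF1A genes, which set the accuracy of start codon choice, 4 probe sets were higher and 3 lower after WPH, with a median of 0.40. Eif1ad, an eIF1A-like protein, had deviations of 18.1, −16.2, −31.6 and −60.4 after WPH, against 87.3, 21.9, −62.0 and 42.8 after AAM. Its standardized difference of −0.90 (interval −2.34 to 0.60) was the lowest of the group. Eif1a had 4 probe sets, between −0.0048 and 1.23. Eif1ax stood at 0.40 and Eif1b at −0.59.

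The eIF3 complex, the scaffold that holds the small subunit, held the only member whose groups did not overlap. Of its 17 probe sets for 11 genes 14 were lower and 3 higher after WPH, with a median of −0.29, and 4 of the 10 that could be fitted were lower after quantile normalization. One of the 2 probe sets of Eif3c, a core subunit, had deviations of −8.77, −16.8, −10.3 and −21.7 after WPH, against 28.6, 4.87, 11.1 and 13.0 after AAM. All 4 WPH arrays lay below all 4 AAM arrays. The standardized difference was −3.47 (95% interval −5.79 to −1.06), with an unadjusted limma p of 0.00168 and an adjusted p of 0.9998. The exact permutation p was 0.0286, the smallest that 4 against 4 arrays allow. Every probe set whose groups do not overlap has this p. The probe set was named for that lack of overlap, so the exact p adds nothing to it. After quantile normalization this probe set held the same value on all 8 arrays and could not be fitted, and after median centring its difference was −1.80. It is not the probe set that represents Eif3c, and with 1 probe set per gene 0 members had groups that did not overlap. The other Eif3c probe set, of higher mean level, had 6.71, 4.20, 4.86 and −31.2 after WPH, against 11.9, 6.499, −4.10 and 1.13 after AAM. In this second one WPH replicate 4 alone stood low, and the difference was −0.56 (interval −1.96 to 0.88).

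Eif3j, a loosely bound subunit, had the smallest p among the probe sets that represent the eIF3 genes. It had 1.97, −1.50, −0.608 and −3.68 after WPH, against 3.02, 0.403, −2.31 and 2.69 after AAM, a difference of −0.79 (interval −2.22 to 0.69). Its second probe set gave 0.91. Eif3b, Eif3d and Eif3k followed at −0.71, −0.64 and −0.48. The rest, Eif3a, Eif3f, Eif3h, Eif3i, Eif3l and Eif3m, lay between −0.29 and −0.12 in their representing probe sets. Eif3f and Eif3m, whose tracts are shown above, had r of 0.82 and 0.85 to the mean profile of the other members. For Eef1b2 and Eef1a1, shown beside them, r was 0.61 and −0.10. Whether the tract goes with the profile was not tested. The eIF3 score was 0.64, −0.27, 0.02 and −0.97 on WPH replicates 1 to 4, against 0.45, 0.12, −0.59 and 0.59 on AAM replicates 1 to 4.

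**Figure D3:**
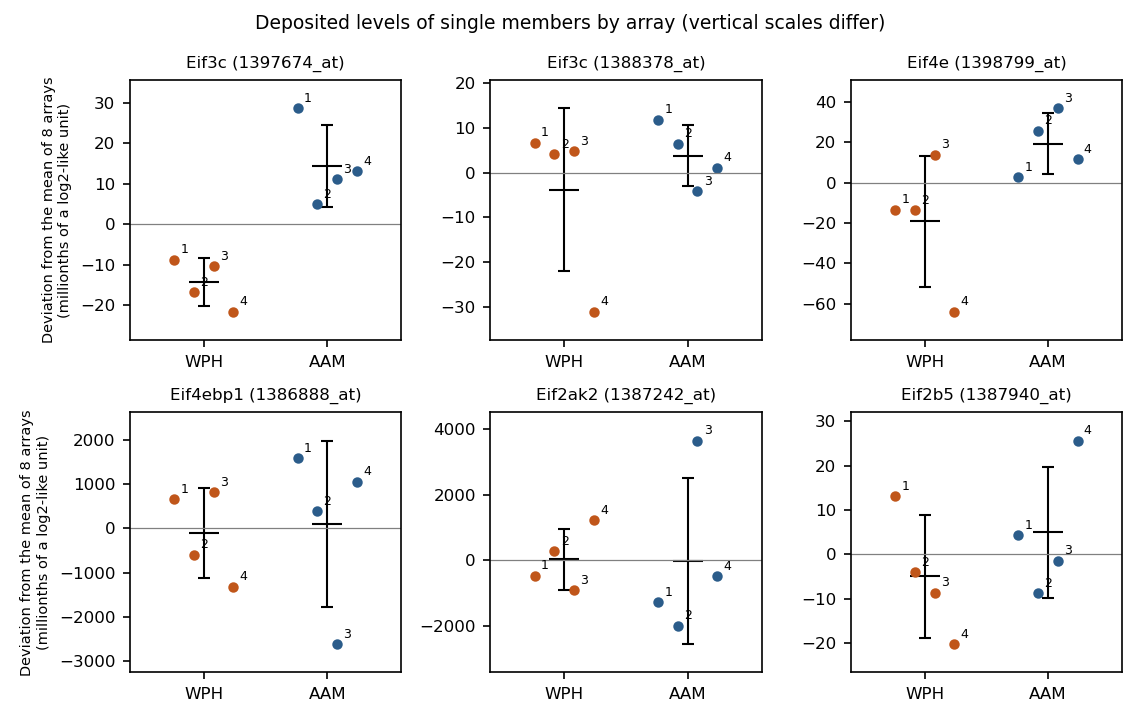
Deviation from the mean of the 8 arrays, in millionths of a log2-like unit, on each WPH array (orange, left) and AAM array (blue, right) for 6 probe sets; numbers are replicates, and bars are the mean and SD of 4 arrays. Only the Eif3c probe set at the top left has groups that do not overlap, and AAM replicate 3 lies apart in Eif4ebp1, low at −2618, and Eif2ak2, high at 3648.

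Eif4e, the cap-binding protein whose promoter holds the 2 E-boxes above, was lower after WPH in all 3 of its probe sets. The probe set that represents it was also lower after quantile normalization and after median centring. After median centring 91.0% of all tested were lower, so that sign tells little about Eif4e. In the deposited values the representing probe set had −13.3, −13.5, 13.9 and −63.9 after WPH, against 2.73, 25.7, 36.7 and 11.7 after AAM. All 4 AAM arrays lay above 0 and 3 of 4 WPH arrays below it, with WPH replicate 3 between the AAM values. The standardized difference was −1.52 (interval −3.10 to 0.15), the unadjusted limma p 0.0623, the adjusted p 0.9998 and the exact permutation p 0.0857. The other 2 probe sets gave −1.02 and −0.54, at mean levels of 6.73 and 6.81, near the median of 6.66 over all tested. Over the arrays the 3 probe sets did not agree, with r between −0.18 and 0.27. Across the cap-binding group 4 probe sets were higher and 3 lower. Eif4e2, a homologue that represses translation, stood at 0.26, Eif4e3 at 0.31 and 0.37, and Eif4enif1, the eIF4E transporter, at 0.12. Eif4e2 was the member least like the rest, with r = −0.76 to the others' mean profile.

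Of the 4E-binding proteins, which keep eIF4E from eIF4G, Eif4ebp1 and Eif4ebp3 varied much between rats (SD over the arrays 1408 and 766 millionths). Eif4ebp2 varied less (16.8), though its SD was past that of 78.2% of all tested probe sets. Eif4ebp1 had deviations of 660, −592, 818 and −1318 after WPH, against 1594, 390, −2618 and 1065 after AAM. Each meal thus held arrays on both sides of the mean, and the standardized difference was −0.14 (interval −1.52 to 1.25). Eif4ebp3 had 929, 16.4, −164 and −641 after WPH, against 602, −245, −1311 and 814 after AAM, a difference of 0.08. Eif4ebp2 had −2.47, −23.6, 5.04 and 8.39 after WPH, against 16.9, −21.8, −5.41 and 23.0 after AAM, a difference of −0.36 (interval −1.74 to 1.06). In Eif4ebp1 and Eif4ebp3 the lowest 2 arrays were AAM replicate 3 and WPH replicate 4, 1 of each meal, and both followed the shared profile (r of 0.90 and 0.94). Eif4ebp1 lay past 98.7% of all tested probe sets in its SD over arrays.

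The helicases eIF4A and their helpers eIF4B and eIF4H unwind the leader of the mRNA. Their probe sets were 3 higher and 5 lower after WPH. Eif4a1 had 6.18, 1.07, 1.71 and −12.7 after WPH, against 8.41, 1.47, −7.43 and 1.32 after AAM, a difference of −0.26 (interval −1.64 to 1.15). Eif4a2, its close paralogue, had 3.60, 3.98, −0.182 and −7.08 after WPH, against 4.28, −0.733, −10.4 and 6.59 after AAM, a difference of 0.02 (interval −1.36 to 1.41). Both were low on WPH replicate 4 and AAM replicate 3. Eif4b had 4.43, 0.423, 4.99 and 1.61 after WPH, against −3.63, −0.679, −13.4 and 6.22 after AAM. All 4 WPH arrays lay above 0 and 3 of 4 AAM arrays below, for a difference of 0.96 (interval −0.56 to 2.41; unadjusted limma p 0.202, adjusted p 0.9998), and its second probe set gave −0.80. Eif4a3, of the exon junction complex, stood at −0.29 and Eif4h at −0.55. The likeness of this group rested on the same 2 arrays: the mean r over 25 pairs was 0.49, and 0.03 without AAM replicate 3 and WPH replicate 4.

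The eIF4G scaffolds, which join eIF4E, eIF4A and eIF3, had 7 probe sets with higher and 2 with lower values after WPH, with a median of 0.16; 3 of 7 were higher after quantile normalization and 1 of 9 after median centring. Eif4g1 had 43.6, 13.7, −27.0 and −16.4 after WPH, against 15.7, −32.0, −88.0 and 90.4 after AAM. The difference was 0.12 (interval −1.27 to 1.502), and its 4 probe sets lay between −0.77 and 0.94. Eif4g2, a relative that works without eIF4E, had 1.47, −0.264, −0.204 and −4.62 after WPH, against 4.53, 0.906, −6.28 and 4.48 after AAM, a difference of −0.45 (interval −1.84 to 0.98). Its other 2 probe sets gave 0.94 and 0.52. Eif4g3 had 420, 43.3, 311 and −606 after WPH, against 325, −200, −878 and 585 after AAM, with a difference of 0.15. The eIF4G score was 0.10 ± 0.27 after WPH and −0.10 ± 1.02 after AAM (mean ± SD, n = 4 each).

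**Figure D4:**
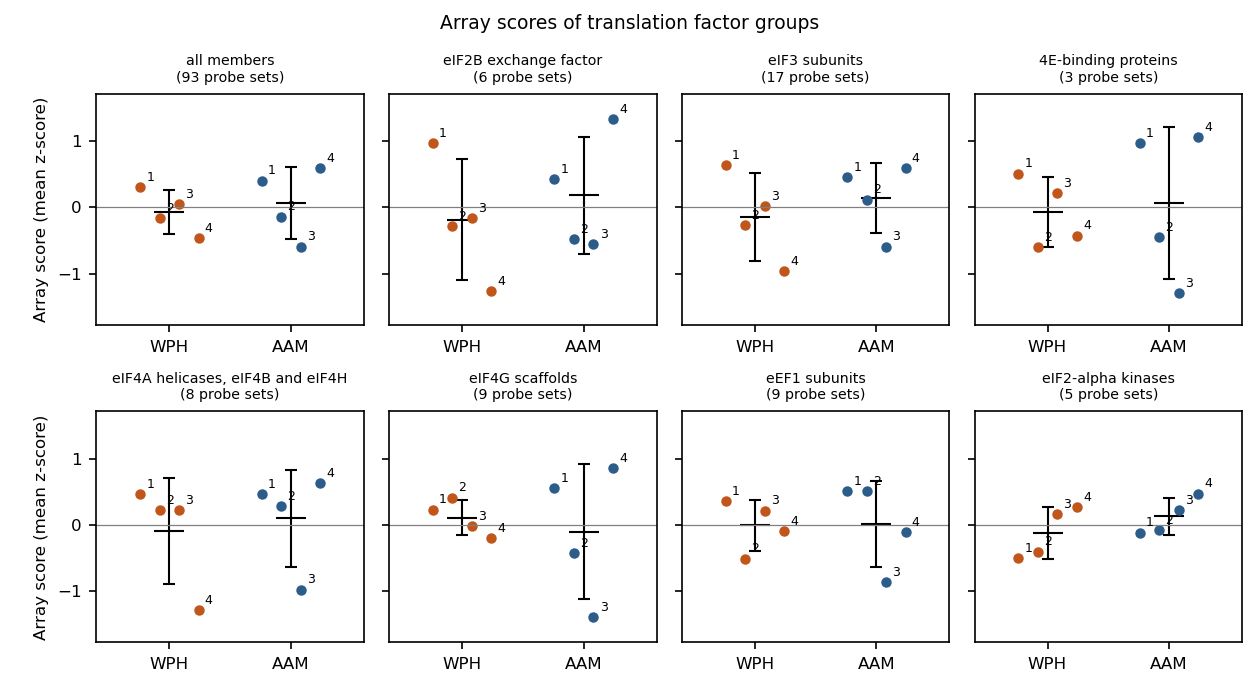
Array score, the mean z-score over the probe sets of a group, on each WPH array (orange, left) and AAM array (blue, right) for all members and for 7 factor groups; numbers are replicates, and bars are the mean and SD of 4 arrays. In each of the 8 panels the meals overlap, and AAM replicate 3 is the lowest AAM array in all but the eIF2-alpha kinases.

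Late initiation and subunit joining were represented by eIF5B and eIF6, together with eIF5A, which helps ribosomes past difficult peptide bonds. Eif5b, the GTPase of subunit joining, had −0.355, −12.2, −14.8 and −30.5 after WPH, against 61.0, −12.0, −26.8 and 35.7 after AAM. All 3 of its probe sets were lower after WPH, at −0.96, −0.50 and −0.30, with an interval of −2.41 to 0.56 for the first. Eif6, which keeps the large subunit from joining early, had −4.58, 1.32, 1.22 and −17.8 after WPH, against 15.7, −1.45, −9.30 and 14.9 after AAM, a difference of −0.92 (interval −2.36 to 0.59). In both genes the 2 highest arrays were AAM replicates 1 and 4. Eif5a had −0.0900, 0.300, −0.700 and 0.780 after WPH, against −0.790, 0.230, 0.0900 and 0.180 after AAM, among the smallest deviations of any member. Its difference was 0.26 (interval −1.14 to 1.64). The 2 probe sets of Eif5a2 gave 1.18 and 0.47.

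Of the eEF1 subunits, 4 probe sets were higher and 5 lower after WPH, with a median of −0.06. Eef1a1, the widespread form of the tRNA carrier, had −3.34, −7.50, 2.35 and 1.47 after WPH, against 9.50, −0.646, 2.79 and −4.65 after AAM. The difference was −0.66 (interval −2.06 to 0.80), and its second probe set gave −0.91. Eef1a2, the form of adult muscle and neurons, had 10.7, −39.5, 23.9 and 39.3 after WPH, against −27.3, −6.13, −30.0 and 29.0 after AAM. Its difference lay the other way, at 0.56 (interval −0.88 to 1.96), and at −0.06 in its second probe set; whether both forms differ from each other was not tested. The exchange subunits Eef1b2, Eef1d and Eef1g stood at −0.16, 0.53 and 0.50, and Eef1e1, part of the tRNA synthetase complex, at −0.43.

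Eef2, the translocase, had deviations of 1.10, −8.01, 2.38 and 1.17 after WPH, against −4.41, −6.32, −4.50 and 18.6 after AAM. AAM replicate 4 was far above and WPH replicate 2 below the other arrays of its meal, and the standardized difference was −0.19 (interval −1.57 to 1.21). It was 1.12 without AAM replicate 4 and 0.077 without WPH replicate 2, so its direction turned when either array was left out. Eef2k, the kinase that inhibits eEF2, had −51.5, −13.4, −102 and 63.3 after WPH, against 173, 39.0, −231 and 122 after AAM, a difference of −0.38 (interval −1.77 to 1.04). Its other 3 probe sets gave 0.04, −0.72 and −0.77. The 3 methyltransferases of eEF1A stood at −0.34 for Eef1akmt2, −0.17 for Eef1akmt4 and 0.23 for Eef1akmt1. Eef1akmt2 had −1.28, −0.770, −0.886 and 1.82 after WPH, against −1.65, −0.913, 1.74 and 1.94 after AAM.

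Probe sets of one gene did not always point the same way. Of the 24 genes with several probe sets, 8 had all of them lower after WPH, 4 all higher and 12 had some in each direction. The 8 were Eef1a1, Eef2, Eif2b5, Eif3a, Eif3c, Eif3l, Eif4e and Eif5b. The 4 were Eef1g, Eif4e3, Eif4g3 and Eif5a2. The Eef1a1 pair agreed over the arrays with r = 0.82, the Eif4e3 pair with r = 0.94, and the 3 Eif4e probe sets between −0.18 and 0.27.

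Genes that act beside these factors gave no call either, in 5 lists written with earlier results of these data known. Of translation termination and ribosome recycling 7 of 8 genes were measured, with 1 higher and 6 lower after WPH. The higher one was Hbs1l, which rescues stalled ribosomes. It had 0.885, 1.54, 0.737 and 4.43 after WPH, against −4.37, −1.0005, −0.559 and −1.66 after AAM, so that the groups did not overlap. Its standardized difference was 2.21 (interval 0.31 to 4.01; unadjusted limma p 0.0177, adjusted p 0.9998, exact permutation p 0.0286). Of the initiation helpers 5 were higher and 6 lower of 11 measured, out of 15. Paip1, which binds the poly(A)-binding protein and eIF4A, had 35.0, −12.2, 40.2 and 76.5 after WPH, against −56.0, −35.9, −57.7 and 10.1 after AAM. The groups overlapped in WPH replicate 2 and AAM replicate 4, with a difference of 2.05 (interval 0.21 to 3.79; unadjusted limma p 0.0209, adjusted p 0.9998). Hbs1l and Paip1 were named as the smallest p of their lists, among 7 and 11 measured genes. The exact permutation p of Hbs1l follows from the lack of overlap and adds nothing to it. No other gene of the 5 lists had an unadjusted limma p below 0.05, and only Hbs1l had groups that did not overlap. Of all tested probe sets 3.58% had such a p, and 2.23% did not overlap.

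Regulators of eIF4 and mTORC1 were 8 higher and 9 lower of 17 measured, out of 19, and the smallest p was that of Fkbp1a, the binding protein of rapamycin, at a standardized difference of 0.93. Genes of the response to eIF2 phosphorylation were 7 higher and 5 lower of 12 measured, all 12 of the list. Ddit3, the stress transcription factor CHOP, stood at 1.498 (interval −0.16 to 3.07). Mitochondrial translation factors were 2 higher and 7 lower of 9 measured, out of 11, with Mrrf, the recycling factor, at −1.09. Over the 8 arrays the score of the termination list and that of the initiation helpers each followed the score of the members with r = 0.89. The score of the regulators of eIF4 and mTORC1 did so with r = 0.80. For the response to eIF2 phosphorylation r was 0.39, and for the mitochondrial list −0.03. These arrays are shared by all lists, and the values are a description.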

How the data were processed

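Levels of rat epitrochlearis RNA were used as the authors deposited them, 1 value per probe set and array on a log2-like scale. The submitters' processing notes name R 2.7.2; for background correction, normalization and summary the sources used here give no method, and scanner files were not used here. The 57 control probe sets were left out of 31099. Symbols came from the platform annotation, and all 93 members matched the GRCr8 gene table by gene ID.

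WPH was compared with AAM by limma 3.58.1 in R 4.3.3 (two-sided, Benjamini-Hochberg over 31042 probe sets). The fit was also run on simulated data with large shifts, which does not tell how small a difference could be called here. Limits of the standardized difference are noncentral t intervals (6 degrees of freedom, 95%, scipy 1.17.1). Exact permutation tests were two-sided over 35 distinct divisions of the arrays. The number of arrays limits the precision.

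Members, lists and tests were chosen with earlier results of these data known. Named were 20 fixed members (19 had a probe set), the gene of smallest p in each group and list, and every probe set whose groups did not overlap; a gene was represented by the probe set with the highest mean level, and other members are given in brief. The alternatives were quantile normalization, median centring, the brighter part of the array, the replicate block, each array left out, 2 arrays left out together, array weights, a trended robust prior, 1 probe set per gene and a threshold of 0.1.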

Additional observations from a re-analysis of the deposited data

Results flagged for a closer look

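Within each meal, the highest and lowest of the 4 arrays were compared with the rest by the gap to the nearest array over the whole range (Dixon's ratio), for the named members and the group scores. Of 80 such groups 6 lay past the critical value, and chance alone gives about 1 in 20. Eef2 had AAM replicate 4 far above the others (ratio 0.923) and WPH replicate 2 far below (0.877). Eif5a had AAM replicate 1 far below (0.863). Eef1akmt2 had WPH replicate 4 far above (0.835). The score of the cap-binding group had WPH replicate 3 far above (0.841), and that of the eIF4A, eIF4B and eIF4H group had WPH replicate 4 far below (0.863).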

How the results depend on the processing

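No member and no other probe set passed the threshold under any alternative run: 0 calls after quantile normalization, after median centring, in the brighter part, with array weights, with a trended robust prior, with the replicate block, with 1 probe set per gene, at a threshold of 0.1 and without any of the arrays. The labels do not say that the replicate numbers pair rats. In their deviations from the group means, same-numbered samples correlated at 0.157, 0.134, 0.064 and −0.071 for replicates 1 to 4. For WPH replicates 1 to 3 the same-numbered AAM array was the closest, and the next closest reached 0.129, 0.095 and 0.035. WPH replicate 4 was closest to AAM replicate 3 (0.279). These values do not settle whether the numbers pair rats. The replicate block changed no sign among the named members and moved the members at an unadjusted p below 0.05 from 1 to 4, which is 4.30% of them, against 4.40% of all tested. That count was 4 of 71 after quantile normalization (5.63%, against 1.26% of all tested), 2 after median centring (2.15%, against 0.554%), 4 without AAM replicate 3 and WPH replicate 4 (4.30%, against 3.90%), 0 with 1 probe set per gene (against 3.17%), and 1 to 3 with single arrays left out (1.08% to 3.23%, against 3.27% to 4.44%).

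Members whose groups do not overlap numbered 0 after quantile normalization (0.152% of all tested), 0 with 1 probe set per gene (2.00%), 7 without AAM replicate 3 and WPH replicate 4 (7.53% of members, against 8.45% of all tested), and 1 to 3 with single arrays left out (1.08% to 3.23%, against 4.18% to 5.32%), with 3 without WPH replicate 4 or AAM replicate 3. The mean correlation between members was 0.0869 after quantile normalization and 0.617 after median centring, and 0.131 to 0.176 with single arrays left out. Array medians differ by more than most probe sets vary, so median centring by its construction moves most probe sets together. The score difference, WPH minus AAM, of eEF2 and its kinase was 0.171 after quantile normalization, against −0.443, and that of eIF5A, eIF5B and eIF6 was −0.697 after median centring, against −0.113. The other group scores moved by less than their SD, between −0.362 and 0.0431 for all members with single arrays left out.

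Quantile normalization left 2710 probe sets, 22 members among them, without variation within the groups, and those could not be fitted. Of the 20 named members fitted, 14 changed sign or came to 0: Eef1a2 −0.46, Eef1akmt2 1.44, Eif1ad 0.0074, Eif2ak2 −0.012, Eif2ak3 0.70, Eif2ak4 0.46, Eif3j 2.12, Eif4ebp1 0.20, Eif4ebp2 0.71, Eif4g1 −1.22 and Eif5a −0.71, and 0 for Eif2s1, Eif4b and Eif5b. After median centring 4 of 26 did: Eif4a2 −0.49, Eif4b −0.25, Eif4g1 −0.081 and Eif5a −0.52. Without AAM replicate 3 and WPH replicate 4, also 4 did: Eef1a2 −0.0045, Eif4a2 −0.29, Eif4g1 −0.29 and Eif5a −0.068. With single arrays left out, the sign changed in 9 genes, within ranges of −0.91 to 0.065 for Eif2s1, −0.33 to 1.48 for Eif2ak2, −1.28 to 0.19 for Eif4ebp1, −1.003 to 0.030 for Eif4ebp2, −0.68 to 0.38 for Eif4a1, −0.71 to 0.42 for Eif4a2, −0.46 to 0.93 for Eif4g1, −0.19 to 0.87 for Eif5a and −0.44 to 1.12 for Eef2. Eef1a2 kept its sign, between 0.23 and 1.45, as did Eif3c, between −4.49 and −3.11, and Eif4e, between −2.27 and −1.24. Where no construction is named, the cause was not tested. The small number of arrays and the unknown processing of the deposited values limit all of these.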

Other observations

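The probe sets with several symbols, left out above, are given here by their standardized difference. That shared by Eif3e and Eif3el1 stood at 0.40, WPH minus AAM. The 3 shared by Eif5, the GTPase activator of eIF2, and Eif5-ps1 stood at −0.10, 0.49 and −0.35. That shared by Eif2s3 and Eif2s3y stood at −1.21, against −0.10 and 1.18 for the probe sets of each gene alone.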
